A study of Homo sapiens with 6 samples.

Results

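MicroRNA host genes are transcription units that carry 1 or more microRNA hairpins in an exon or an intron, and the long noncoding RNAs (lncRNAs) described here are named for that cargo. All genes whose symbol begins with MIR and ends with HG were taken from the gene count table, provided that at least 1 of the 6 libraries held more than 12 counts. Of 41 such genes, 34 passed and were tested among 23952 genes of 30270 in the table. The 7 that did not pass were MIR124-1HG, MIR31HG, MIR3659HG, MIR378D2HG, MIR4280HG, MIR4432HG and MIR7-3HG, none with more than 10 counts in any library, and the lowest largest count among those that passed was 24, in MIR4713HG. Total RNA depleted of ribosomal RNA of HEK 293T cells was sequenced; this line derives from embryonic kidney and expresses the SV40 large T antigen. The 6 libraries were 3 biological replicates of wild-type (WT) cells and 3 of cells labelled as a TENT3A/B double knockout, called ΔTUT4/7, the study's name for the same 2 enzymes. All cultures grew in the same medium, no treatment is given for either group, and the knockout samples are of a single line. The WT cells came from a repository and the line labelled ΔTUT4/7 from another laboratory, so the genotype and the history of the line cannot be told apart.

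The primary transcript of a microRNA gene is cut in the nucleus by DROSHA and DGCR8, which release a hairpin. The hairpin is exported, DICER1 trims it to a duplex of about the length of the mature microRNA, and the rest of the host transcript is spliced or degraded. TUT4 and TUT7 act after the nuclear cut: they add uridines to hairpins such as those of the let-7 family and, with LIN28, mark them for decay. The abundance of a host transcript in total RNA therefore reports on transcription and turnover of the host, and not on the mature microRNA, which was not measured in these libraries.

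Totals ran from 18757228 to 33148937 counts, and the tested host genes took between 0.0420% and 0.0562% of a library. TUT4 went against the label: it measured 211 ± 5.08 CPM (counts per 1e+06 of the TMM-scaled library size; mean ± SD, n = 3) in WT and 906 ± 21.4 in the knockout libraries, a log2 fold change of 2.10 ± 0.04 (SE). TUT7 was lower, at 62.6 ± 2.17 CPM in WT and 26.3 ± 1.04 in the knockout libraries (log2 fold change -1.25 ± 0.06). Gene counts do not show whether a transcript still encodes a working enzyme, so the libraries are called "labelled ΔTUT4/7" throughout and each direction below is that of these libraries against WT. All 9 markers of HEK 293T cells fixed for the check passed the count limit, with 4 higher and 5 lower in the libraries labelled ΔTUT4/7. Large changes went both ways. NEFM, a neurofilament gene, was at 969 CPM in WT and 0.0170 CPM in the other group. INA rose from 2.34 to 31.4 CPM and VIM from 496 to 1250 CPM. Of 11 markers of other cell types, 5 were in the table, none passed the limit and none exceeded 0.562 CPM. In bulk RNA, fewer cells that express a gene and less RNA per cell cannot be told apart.

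RefSeq sequences (GRCh38.p14) of mature microRNAs were matched to 26 of the 34 tested hosts, which together held 50 hairpins inside their span and on their strand. Of these hairpins, 30 lay in an exon of at least 1 GENCODE transcript, 3 partly so and 17 in an intron. Those carried by the hosts on which the results turn are shown here, with bases 2 to 8, the seed that pairs with target mRNAs, in capitals. Hosts without a match, MIR4458HG among them, were not compared by seed. Among matched hosts, the let-7 sequences share 1 seed and come from 4, MIRLET7A1HG (let-7a, let-7d, let-7f), MIRLET7BHG (let-7a, let-7b), MIR99AHG (let-7c) and MIR4500HG (miR-4500).
let-7a-5p: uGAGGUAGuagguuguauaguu
let-7b-5p: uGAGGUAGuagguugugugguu
let-7c-5p: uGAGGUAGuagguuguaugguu
let-7d-5p: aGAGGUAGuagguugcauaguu
let-7f-5p: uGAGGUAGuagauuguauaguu
miR-4500: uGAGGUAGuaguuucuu

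MIR17HG carries the miR-17-92 cluster, whose members show 4 different seeds: miR-17 and miR-20a share one, miR-19a and miR-19b share another, and miR-18a and miR-92a each have their own.
miR-17-5p: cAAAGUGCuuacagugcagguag
miR-20a-5p: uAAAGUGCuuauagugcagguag
miR-18a-5p: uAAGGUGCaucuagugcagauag
miR-19a-3p: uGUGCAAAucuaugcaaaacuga
miR-19b-3p: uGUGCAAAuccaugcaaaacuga
miR-92a-3p: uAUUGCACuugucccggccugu

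The remaining sequences belong to hosts that changed by 2-fold or more (miR-34a in MIR34AHG, miR-29b and miR-29c in MIR29B2CHG, miR-4435 in MIR4435-2HG, miR-646 in MIR646HG, miR-210 in MIR210HG, miR-99a in MIR99AHG) and to MIR222HG, 1 of the most abundant hosts. The pairs miR-29b and miR-29c, and miR-221 and miR-222, each share a seed.
miR-34a-5p: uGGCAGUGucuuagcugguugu
miR-29b-3p: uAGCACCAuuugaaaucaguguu
miR-29c-3p: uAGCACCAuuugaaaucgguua
miR-4435: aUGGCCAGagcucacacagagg
miR-646: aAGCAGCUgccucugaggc
miR-210-3p: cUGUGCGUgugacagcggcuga
miR-99a-5p: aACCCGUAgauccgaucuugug
miR-221-3p: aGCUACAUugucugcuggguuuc
miR-222-3p: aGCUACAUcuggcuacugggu

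Host genes moved in both directions in equal number. At an adjusted p under 0.05 (edgeR quasi-likelihood test, Benjamini-Hochberg over all tested genes; FDR below), 10 of the 34 hosts were higher and 10 were lower in the libraries labelled ΔTUT4/7, while 14 were not called. The share called, 58.8%, lay beside 57.7% of all tested genes (28.6% higher, 29.0% lower), so as a group the hosts were called about as often as any gene. Against the 4966 tested lncRNAs alone, of which 41.4% were called, 10.8% higher and 30.6% lower, a larger share of the hosts was higher (29.4%). At 2-fold or more, 6 hosts were higher and 3 lower, 26.5% of those tested, beside 18.3% of all genes (5.90% higher, 12.4% lower) and 24.6% of lncRNAs (4.71% higher, 19.9% lower). The lncRNAs were not matched to the hosts by count, so part of this difference may lie in how many counts the genes held. These shares are descriptions of a small list and no test of the list was made.

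The median log2 fold change of the hosts was 0.03, beside -0.02 over all tested genes and -0.29 over tested lncRNAs. The 3 WT and the 3 labelled ΔTUT4/7 libraries did not overlap for 21 hosts (61.8%), beside 62.8% of all genes and 49.6% of lncRNAs. MIR497HG was called although its groups overlapped, and MIR302CHG and MIR4453HG had groups apart but were not called. Where the mean count reached 50, 18 of 26 hosts were called, and below it 2 of 8. The shares of all tested genes called at these levels were not counted, so this split shows nothing particular to the hosts.

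**Figure D1:**
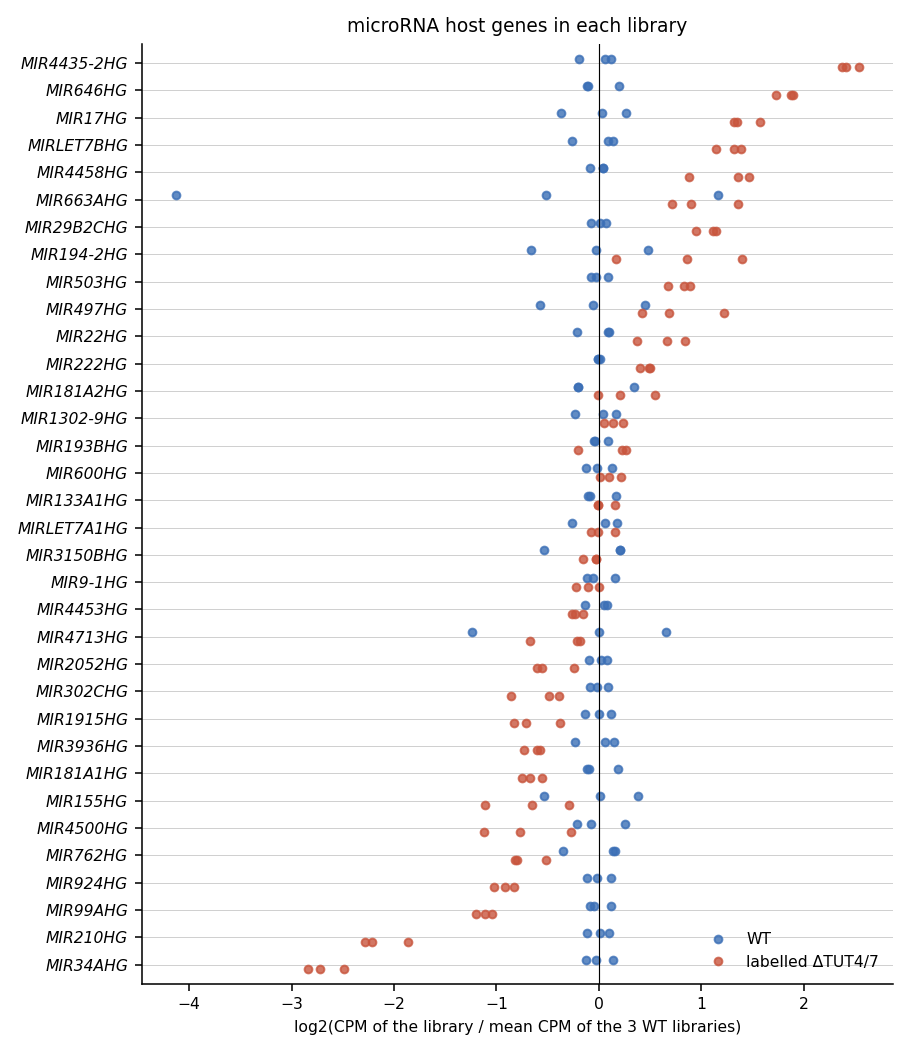
Each row is 1 of the 34 tested host genes, ordered by fold change, and each point is 1 library, placed at the log2 ratio of its CPM to the mean CPM of the 3 WT libraries (blue, WT; red, labelled ΔTUT4/7). The red points of MIR4435-2HG and MIR34AHG lie farthest from the WT points, and MIR663AHG has a WT library about 4 log2 units below the WT mean.

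The let-7 family restrains growth programmes and is the best known substrate of TUT4 and TUT7, and its 3 listed hosts in the table each behaved differently. MIRLET7BHG (chr22:46053869-46113928, hg38, plus strand), with let-7a-3 and let-7b in exons, was higher. Its level was 1.68, 1.62 and 1.27 CPM in WT replicates 1, 2 and 3 and 3.37, 3.80 and 3.98 CPM in the libraries labelled ΔTUT4/7. Every labelled ΔTUT4/7 library lay above every WT library, a 2.44-fold rise (log2 fold change 1.29 ± 0.20 SE, FDR 1.09e-05). The gene held a mean of only 62.3 counts per library.

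MIR99AHG (chr21:15928296-16645467, plus strand), whose transcripts carry miR-99a in an intron and let-7c in an exon of at least 1 transcript, was lower. It measured 26.8, 31.0 and 27.6 CPM in WT and 12.4, 13.2 and 13.8 CPM in the libraries labelled ΔTUT4/7. The groups stood well apart, with a 2.17-fold decrease (log2 fold change -1.12 ± 0.09, FDR 2.75e-10). The lncRNA AP001172.1, on the opposite strand inside the same span, also fell (log2 fold change -1.14 ± 0.27, FDR 0.00111). Read strand was not stated, so reads of 2 genes that overlap in antisense cannot be told apart.

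MIRLET7A1HG (chr9:94166258-94200902, plus strand), the host of let-7a-1, let-7f-1 and let-7d, did not pass the test. Its WT libraries gave 17.2, 21.5 and 23.3 CPM and those labelled ΔTUT4/7 gave 19.6, 23.1 and 20.6 CPM. The groups interleaved, and the log2 fold change was 0.01 with a 95% interval from -0.20 to 0.23 (FDR 0.915). The sign of that value turned under library-size and upper-quartile scaling and in 4 other alternatives, while the interval leaves out changes as large as those of the other 2 hosts. The 95% intervals of the 3 hosts did not overlap: 0.87 to 1.72 in MIRLET7BHG, and -1.30 to -0.94 in MIR99AHG. In CPM, MIR99AHG was the highest of the 3 in WT, at 28.5 ± 2.19, against 20.7 ± 3.15 in MIRLET7A1HG. Per kilobase of exon, MIRLET7A1HG was the most abundant in WT, at 4.44 ± 0.677 CPM per kb, against 0.491 in MIR99AHG and 0.236 in MIRLET7BHG. That order rests on exon lengths of 58.0 kb in MIR99AHG and 4.65 kb in MIRLET7A1HG. They come from GENCODE 44, whose span matched the table's for neither of these hosts.

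The hairpins from which let-7a, let-7b and let-7c are cut show how near-identical products sit in hosts of unequal response. The mature 5p strand is in capitals; let-7a-1 is at chr9:94175957-94176036, let-7b at chr22:46113686-46113768 and let-7c at chr21:16539828-16539911, all on the plus strand of GRCh38.p14.
MIRLET7A1: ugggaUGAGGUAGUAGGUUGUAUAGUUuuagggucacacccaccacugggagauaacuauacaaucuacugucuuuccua
MIRLET7B: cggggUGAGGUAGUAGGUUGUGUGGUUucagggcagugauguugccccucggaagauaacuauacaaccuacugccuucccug
MIRLET7C: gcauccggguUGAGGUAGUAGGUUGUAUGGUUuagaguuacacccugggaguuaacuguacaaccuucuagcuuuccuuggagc

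MIR4500HG, the intronic host of the let-7-like miR-4500, was lower as well, from 3.33 ± 0.572 to 2.08 ± 0.624 CPM (log2 fold change -0.69 ± 0.22, FDR 0.0116). This call was lost without WT replicate 1 (FDR 0.0579) or without the labelled ΔTUT4/7 replicate 1 (FDR 0.0946). SLITRK5, which overlaps it on the opposite strand with many more counts, had a log2 fold change of -0.56 ± 0.05.

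**Figure D2:**
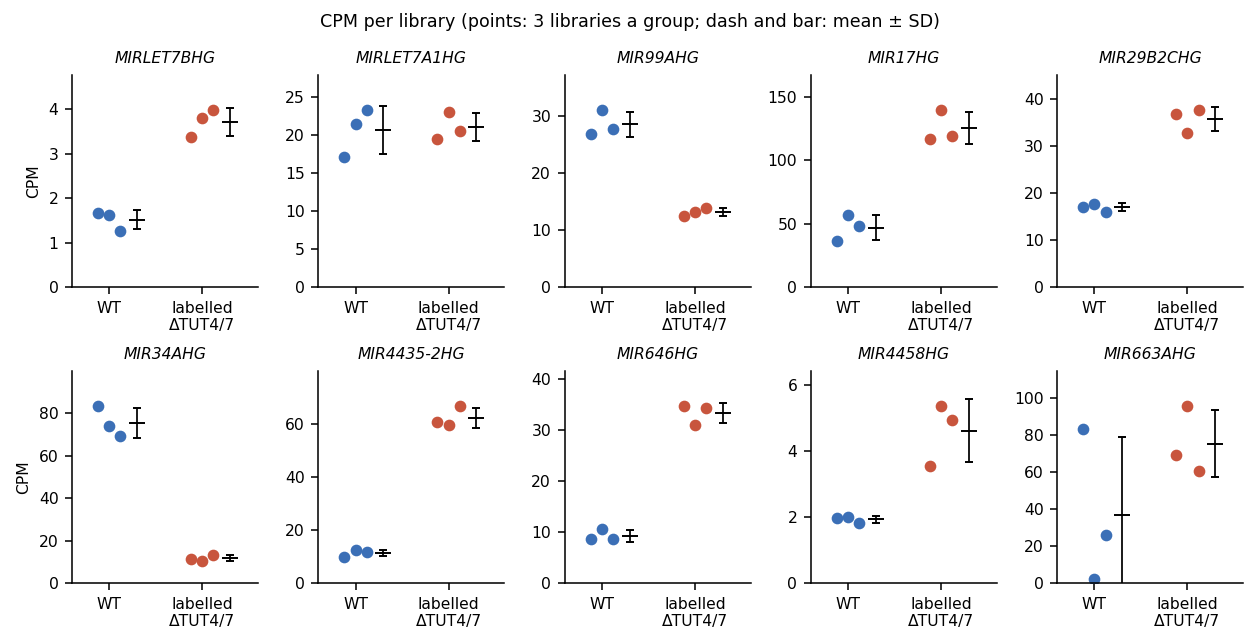
CPM on a linear axis from 0 in each of the 3 WT (blue) and 3 labelled ΔTUT4/7 (red) libraries for 10 host genes, with the mean ± SD beside the points (the lower end of the MIR663AHG WT bar falls below 0 and is not drawn). The groups stand apart in 8 panels and overlap for MIRLET7A1HG and MIR663AHG.

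MIR17HG (chr13:91347820-91354579, plus strand) hosts the miR-17-92 cluster, known as an oncogenic cluster that promotes proliferation and is a direct target of MYC. Its 6 hairpins all lie in an exon. The host was measured at 36.4, 56.6 and 48.0 CPM in WT and at 117, 140 and 119 CPM in the libraries labelled ΔTUT4/7. The lowest of the latter was above the highest WT library by a wide margin, a 2.67-fold rise (log2 fold change 1.40 ± 0.18, FDR 0.00256). With 86.2 CPM over all libraries it was the most abundant host by CPM. Expressed neighbours are tested genes within 1 Mb of a host with a mean count of 50 or more, genes that overlap the host included. The single neighbour of MIR17HG went the other way, with a log2 fold change of -1.29.

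MIR34AHG (chr1:9148011-9198906, minus strand) showed the largest fall of any host. It carries miR-34a, a microRNA induced by p53 that restrains the cell cycle, in an exon. Levels were 83.2, 73.7 and 69.1 CPM in WT, and 11.4, 10.5 and 13.4 CPM in the libraries labelled ΔTUT4/7. Expression was thus 6.41-fold lower (log2 fold change -2.68 ± 0.09, FDR 3.84e-14), with no overlap between the groups. LNCTAM34A, an antisense lncRNA inside the MIR34AHG locus that is known to act on miR-34a expression, fell from 7.66 ± 1.33 to 0.593 ± 0.103 CPM (log2 fold change -3.66 ± 0.21, FDR 3.44e-12). The 15 expressed neighbours of MIR34AHG, LNCTAM34A among them, had a median log2 fold change of -0.44.

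Both transcripts of this locus fell, and the RefSeq start of MIR34AHG lies where they overlap, inside the longer span that the table gives. The window from 250 bases before to 50 after the start, chr1:9182289-9182588 on the minus strand of GRCh38.p14, holds 38 CG dinucleotides (searched as the letters CG, in capitals), beside a median of 14 over 35116 promoters. Of all promoters of this length, 9.91% hold as many or more. DNA methylation was not measured here.
MIR34AHG promoter: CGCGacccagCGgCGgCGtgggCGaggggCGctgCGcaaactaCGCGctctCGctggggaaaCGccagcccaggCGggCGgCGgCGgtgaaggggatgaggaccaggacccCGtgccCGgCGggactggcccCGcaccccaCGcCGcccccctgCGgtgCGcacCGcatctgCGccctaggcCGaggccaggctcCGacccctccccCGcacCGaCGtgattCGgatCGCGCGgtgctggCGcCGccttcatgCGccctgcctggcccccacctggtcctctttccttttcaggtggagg

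The hairpin that this host carries, at chr1:9151668-9151777 on the minus strand, is printed with the mature miR-34a-5p in capitals.
MIR34A: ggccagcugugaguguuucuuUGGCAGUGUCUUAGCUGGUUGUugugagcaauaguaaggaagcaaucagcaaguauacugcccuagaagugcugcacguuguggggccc

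MIR29B2CHG (chr1:207801518-207879115, minus strand) carries miR-29b-2 and miR-29c, which repress collagens and other matrix genes, in exons. WT libraries held 17.1, 17.8 and 16.1 CPM and those labelled ΔTUT4/7 held 36.7, 32.7 and 37.6 CPM. The rise was 2.10-fold (log2 fold change 1.07 ± 0.08, FDR 1.07e-10), and 5 expressed neighbours had a median of -0.04. With library size as the scaling, the log2 fold change was 0.96, just under 2-fold.

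MIR4435-2HG (chr2:111006015-111523376, minus strand), a long lncRNA that has been linked to the survival of short-lived myeloid cells through its neighbour BCL2L11, rose more than any other host. It measured 10.0, 12.4 and 11.9 CPM in WT and 60.9, 59.5 and 66.7 CPM in the libraries labelled ΔTUT4/7. The rise was 5.44-fold (log2 fold change 2.43 ± 0.08, FDR 3.67e-16), and the groups were far apart. BCL2L11, which encodes the pro-apoptotic protein BIM and overlaps the host on the opposite strand, rose less, from 44.1 ± 1.24 to 59.8 ± 2.56 CPM (log2 fold change 0.44 ± 0.06). The median over 16 expressed neighbours was 0.01.

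MIR4435-2HG shares exon sequence with CYTOR on the same chromosome, itself the host of a second miR-4435 gene, and the counts of both are uncertain where the model had to share reads. Of the windows of 76 bases in MIR4435-2HG exons, 23.1% also occurred in CYTOR exons, and 45.1% of the CYTOR windows occurred in MIR4435-2HG. CYTOR rose alongside it, from 3.42, 4.45 and 4.14 CPM in WT to 26.3, 29.9 and 29.0 CPM in the libraries labelled ΔTUT4/7 (log2 fold change 2.81 ± 0.11, FDR 4.96e-15). How much of each rise belongs to which gene was not tested.

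MIR646HG (chr20:60087826-60653784, plus strand), the intronic host of miR-646 and miR-4533, gave 8.71, 10.7 and 8.61 CPM in WT and 34.7, 31.1 and 34.3 CPM in the libraries labelled ΔTUT4/7. This was a 3.57-fold rise without overlap (log2 fold change 1.84 ± 0.09, FDR 3.90e-13). Its 5 expressed neighbours had a median log2 fold change of 0.66, and 3 of them were above 0. MIR4458HG (chr5:8450701-8486930, plus strand) measured 1.99, 1.99 and 1.83 CPM in WT and 3.56, 5.36 and 4.96 CPM in the libraries labelled ΔTUT4/7. It was 2.39-fold higher (log2 fold change 1.24 ± 0.20, FDR 1.31e-05), with 2 expressed neighbours at a median of 0.77. Less their neighbours' median, the value of MIR4458HG was 0.47, under 2-fold, whereas MIR646HG kept more than 2-fold.

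MIR210HG (chr11:565660-568457, minus strand), host of the hypoxia-induced miR-210, was the remaining host lower by 2-fold or more, from 1.67 ± 0.128 to 0.388 ± 0.0628 CPM (log2 fold change -2.11 ± 0.31, FDR 4.15e-06). The 36 expressed genes within 1 Mb had a median of 0.29. With a mean of 25.8 counts per library this fold is less precise than the others, and on the log2(CPM + 1) scale it was -0.94.

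**Figure D3:**
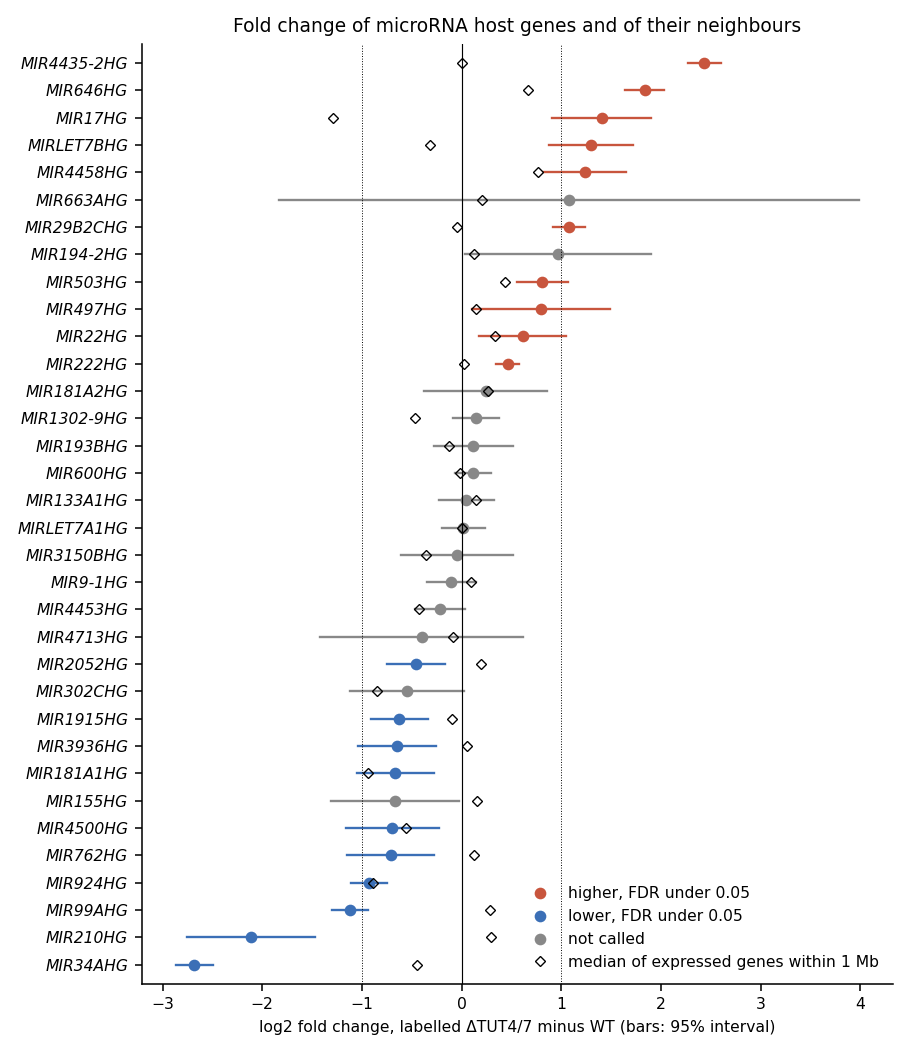
Log2 fold change of each tested host gene with its 95% interval (filled points and bars; red higher, blue lower, grey not called) and the median log2 fold change of expressed genes within 1 Mb (open diamonds; dotted lines mark 2-fold). The diamonds of MIR4435-2HG, MIR29B2CHG and MIR99AHG lie far from their hosts, while those of MIR924HG and MIR181A1HG lie within the hosts' intervals.

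Of the 2 other hosts with the most CPM over all libraries, MIR222HG (chrX:45745211-45770274, minus strand) showed a small and precise rise. This host of miR-221 and miR-222, which repress the cell cycle inhibitor p27, gave 46.3, 46.5 and 47.1 CPM in WT and 61.5, 65.8 and 65.4 CPM in the libraries labelled ΔTUT4/7. The rise was 1.38-fold (log2 fold change 0.46 ± 0.06, FDR 2.87e-07). Per kilobase of exon, with lengths from GENCODE 44, whose span matched the table's for 22 of the 34 hosts but not for MIR222HG and MIR17HG, it was the most abundant host in WT, at 16.3 ± 0.155 CPM per kb, ahead of MIR34AHG (8.65 ± 0.823) and MIR17HG (7.96 ± 1.71), which did not differ beyond their spread. In the libraries labelled ΔTUT4/7, MIR222HG (22.4 ± 0.835 CPM per kb) and MIR17HG (21.2 ± 2.10) were level within their spread, and MIR34AHG was at 1.35 ± 0.17.

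MIR663AHG (chr20:26167817-26251546, minus strand) was the most variable host. Its WT libraries gave 83.2, 2.12 and 25.9 CPM, and those labelled ΔTUT4/7 gave 69.2, 95.4 and 60.7 CPM. WT replicate 1 lay within the range of the other group and WT replicate 2 lay far below it, and the log2 fold change was 1.08 ± 1.07 (FDR 0.453). The row of MIR663A itself, inside this host, followed the same libraries, at 14.8, 0.192 and 9.23 CPM in WT and 12.8, 14.9 and 14.6 CPM in the libraries labelled ΔTUT4/7. The call depended on the tool: limma-voom (log2 fold change 2.27, adjusted p = 0.0139) and limma on log2(CPM + 1) (1.96, adjusted p = 0.0358) both called it. The edgeR value was 2.37 without WT replicate 1 (FDR 0.137) and 0.51 without WT replicate 2 (FDR 0.573), not called in either. No other microRNA row of the table lay inside a host on its strand.

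MIR663AHG also moved the summed level of all tested hosts. The sum was 465, 406 and 410 CPM in WT and 539, 591 and 557 CPM in the libraries labelled ΔTUT4/7. Without MIR663AHG it was 382, 404 and 384 CPM in WT and 470, 496 and 496 CPM in the other group. When MIR17HG and MIR4435-2HG were also left out, a choice made after their values were seen, the sum was 335, 335 and 324 CPM in WT and 292, 297 and 310 CPM in the libraries labelled ΔTUT4/7. Hosts that fell stayed in this last sum, among them MIR34AHG, at 75.3 ± 7.17 CPM in WT and 11.8 ± 1.48 in the other group. Leaving out only hosts that rose lowers the second group by construction. The direction of the sum therefore depends on which hosts are left out, and no conclusion is drawn from it.

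The other 4 hosts called higher rose by less than 2-fold. Apart from MIR222HG, they were MIR503HG, the X-linked host of the cell cycle regulator miR-503 (log2 fold change 0.81 ± 0.12, FDR 7.93e-06), MIR22HG (0.61 ± 0.21, FDR 0.0159) and MIR497HG, host of miR-195 and miR-497 (0.80 ± 0.33, FDR 0.0447). MIR503HG was measured at 5.30 ± 0.315 CPM in WT and 9.26 ± 0.704 in the libraries labelled ΔTUT4/7, without overlap. The call of MIR22HG was lost without WT replicate 1 (FDR 0.0574), without the labelled ΔTUT4/7 replicate 3 (FDR 0.0777) and with DESeq2 (adjusted p = 0.0561), and WDR81, which overlaps it on the opposite strand, had a log2 fold change of 0.65. The call of MIR497HG, with a mean of 23.2 counts, was lost in 11 alternatives, with adjusted p between 0.0513 and 0.312, including those without WT replicate 1 (0.0867), WT replicate 2 (0.179), the labelled ΔTUT4/7 replicate 1 (0.312) or the labelled ΔTUT4/7 replicate 2 (0.0596).

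The other 7 hosts called lower fell by less than 2-fold. MIR924HG, a long intronic host with a mean of 551 counts, was the most abundant of them and decreased from 29.0 ± 2.37 to 15.3 ± 1.04 CPM (log2 fold change -0.93 ± 0.08, FDR 4.74e-09). Its 2 expressed neighbours, AC099845.1 on the opposite strand (-0.81) and RPL7AP66 on the same strand (-0.96), both lie inside its span and may share its reads. Their median of -0.89 was close to the value of MIR924HG itself, so little of the fall remains when that median is subtracted. MIR762HG (-0.71 ± 0.21), MIR4500HG, MIR181A1HG (-0.67 ± 0.18), MIR3936HG (-0.65 ± 0.19), MIR1915HG (-0.62 ± 0.14) and MIR2052HG (-0.46 ± 0.14) followed, with FDR from 0.000488 to 0.0116. MIR762HG, MIR3936HG and MIR2052HG each overlap an opposite-strand gene with more counts, BCL7C (0.24 ± 0.11), SLC22A5 (-0.25 ± 0.06) and PCBP2P2 (0.08 ± 0.07) in turn. SLC22A4 (-0.85 ± 0.28) and AC011632.1 (-1.49 ± 0.34), with fewer counts, overlap MIR3936HG and MIR2052HG in the same way. Reads of such pairs cannot be told apart. MIR181A1HG carries hairpins of miR-181a and miR-181b, and MIR181A2HG, on another chromosome, carries a second hairpin of the same miR-181a. MIR181A1HG was lower, while MIR181A2HG was not called (0.24 ± 0.30, FDR 0.508), and the difference between them was not tested. The 2 expressed neighbours of MIR181A1HG had a median of -0.94, and less that median its value turned to 0.27.

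The 14 hosts not called were MIRLET7A1HG, MIR663AHG, MIR181A2HG and 11 more. Among these, MIR194-2HG (0.97 ± 0.45, FDR 0.0718), MIR155HG (-0.67 ± 0.31, FDR 0.0692) and MIR302CHG (-0.55 ± 0.27, FDR 0.0955) had the largest values, with means of 13.2, 27.3 and 27.0 counts per library, beside 23.2 in MIR497HG and 25.8 in MIR210HG, which were called. MIR155HG passed without WT replicate 1 (FDR 0.0268) or without the labelled ΔTUT4/7 replicate 2 (FDR 0.048), and MIR194-2HG without the same libraries (FDR 0.0495 and 0.0349). The other values ran from -0.40 in MIR4713HG over MIR4453HG (-0.22), MIR9-1HG, MIR3150BHG, MIR133A1HG, MIR600HG and MIR193BHG to 0.14 in MIR1302-9HG. MIR600HG shares its strand with STRBP, which held more counts, and MIR1302-9HG is a subtelomeric gene with near-identical copies on other chromosomes, so their values are uncertain. MIR133A1HG, MIR302CHG, MIR181A2HG, MIR3150BHG and MIR4713HG overlap opposite-strand genes with more counts. Among these genes are MIB1, LARP7, NR6A1, NDUFAF6 and CYP19A1, in turn. Reads of such pairs cannot be told apart, so the values of these hosts are uncertain too.

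**Figure D4:**
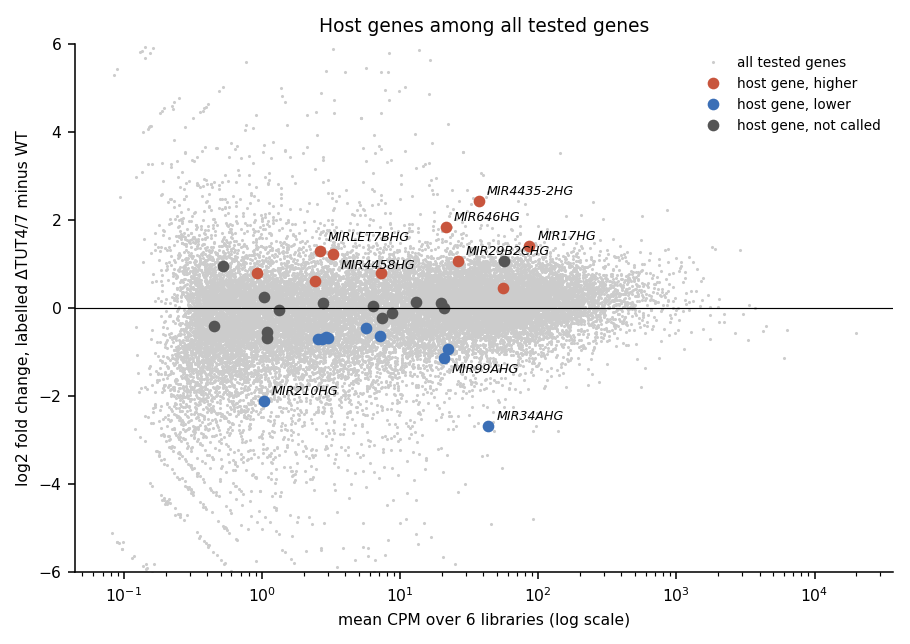
Log2 fold change against mean CPM over the 6 libraries (log axis) for all 23952 tested genes (grey; 147 beyond 6 log2 units are not drawn) and the 34 host genes (red higher, blue lower, dark grey not called). The hosts lie on both sides of 0 except at the highest levels, where MIR222HG, MIR663AHG and MIR17HG all lie above 0. Among the hosts, MIR4435-2HG and MIR34AHG lie farthest from 0.

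Position and hairpin placement, which the choice by name did not use, varied among the hosts. They lay on 17 chromosomes, and 24 overlapped another gene of the table, 13 of them one with more counts. Among hosts with a matched hairpin, 5 of 8 called higher, 2 of 8 called lower and 6 of 10 not called had a hairpin lying wholly in an exon. For the 20 called hosts, the median of expressed genes within 1 Mb had the same sign as the host in 12, and for the 9 hosts at 2-fold or more in 4. The same count over all tested genes was not made, so these numbers have no comparison. The neighbours include genes that overlap the host and can be as few as 1, as for MIR17HG.

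By the roles listed for their microRNAs, the groups were small and mixed, and their counts stand beside 57.7% of all tested genes called. Of 5 tested hosts of tumour suppressor microRNAs, 3 were higher (MIR29B2CHG, and MIR22HG and MIR497HG, whose calls were lost in the alternatives given above), 1 lower (MIR34AHG) and 1 not called (MIR193BHG). Of 4 hosts listed for blood and immune cells, 1 was higher (MIR4435-2HG), 1 lower (MIR181A1HG) and 2 not called. Of the 3 hosts of hypoxia and X-linked microRNAs, MIR222HG and MIR503HG were higher and MIR210HG was lower. The tested host of a neural microRNA, MIR9-1HG, and both hosts of muscle and embryonic microRNAs, MIR133A1HG and MIR302CHG, were not called. MIR133A1HG (mean count 154) overlaps MIB1 (6052) on the opposite strand, and MIR302CHG (27.0) overlaps LARP7 (1244) in the same way. Their counts may include reads of those genes, which was not tested.

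MicroRNAs also lie in introns of protein-coding genes, and these hosts were counted in the same fit. Of 43 tested genes of a list of 45, 17 were higher, 13 lower and 13 not called (69.8% called, beside 57.7% of all tested genes). By 2-fold or more 2 were higher and 3 lower (11.6%, beside 18.3% of all tested genes), with a median log2 fold change of -0.05. The largest rise was in FGF13, a growth factor homolog that hosts miR-504, from 0.975 ± 0.0381 to 108 ± 1.42 CPM (log2 fold change 6.80 ± 0.09). PPARGC1B, the transcriptional coactivator that hosts miR-378a, followed, with 1.13 ± 0.05. The largest falls were in COPZ2, a coatomer subunit gene that hosts miR-152 (-2.74 ± 0.77, FDR 0.00429, with few counts), and in SLIT3, an axon guidance ligand that hosts miR-218-2 (-2.42 ± 0.16). Of the let-7 hosts in this list, named after their values were seen, WDR82 rose from 125 ± 4.50 to 236 ± 8.31 CPM (0.92 ± 0.05) and HUWE1 from 1105 ± 26 to 1452 ± 57.6 CPM (0.39 ± 0.04).

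Of 4 other noncoding hosts tested, DLEU2 (0.20) and LINC-PINT (0.31) rose, H19 fell (-1.91 ± 0.36, FDR 0.000114) and FTX was not called. Among 10 genes for cutting, export and dicing of hairpins, 6 were higher, 1 lower and 3 not called, where 57.7% of all tested genes were called and 28.6% higher. TARBP2, the partner of DICER1, rose by 1.07 ± 0.08 on the log2 scale, DROSHA from 112 ± 3.86 to 227 ± 5.36 CPM (1.02 ± 0.05), and DDX17 fell by 0.54 on the log2 scale.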

How the data were processed

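Total RNA of HEK 293T cells, 3 WT cultures and 3 labelled ΔTUT4/7, was depleted of ribosomal RNA and sequenced as paired ends of 76 bases. The authors aligned reads to hg38 with STAR 2.7.3a and quantified Ensembl 102 genes in Partek Flow 10.0.22, and the deposited table holds each estimated count of its expectation-maximisation model, which need not be whole and share reads between similar or overlapping genes. Read strand was not given in the sources used here. A deposited table of the authors' own comparison (p-value, step-up FDR, ratio, fold change and least-squares means) was not used.

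Counts were rounded, genes with a largest count above 12 kept, scaled with TMM and tested with edgeR 4.0.16 (robust glmQLFit and glmQLFTest, with no covariate) under R 4.3.3. Errors of log2 fold changes are SE, and intervals are at the 95% level. CPM is relative to the TMM-scaled library size, given as mean ± SD, and CPM per kb uses the merged exons of GENCODE 44. Neighbours are tested genes within 1 Mb whose mean count reached 50, overlapping genes included. The biological coefficient of variation was 6.44%. No pair of libraries agreed within sampling noise (chi-square per degree of freedom 2.44 to 10.4 within groups, 72.2 to 118 between). The labels call the replicates biological without saying how the cultures were separated, so p-values measure the spread between these samples, which may be technical.

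Every host gene that passed is named. Values in every library are given for hosts called at 2-fold or more with a mean count of 50 or more, let-7 hosts, MIR17HG and the 3 hosts with the most CPM, and CYTOR was added after its values were seen. The hosts and lists were chosen with earlier results of these data known. The fit was tested on simulated data. Alternatives were other scalings, DESeq2 1.42.0, limma 3.58.1, other count filters, a replicate block, leaving out each library and subtracting the neighbours' median.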

Additional observations from a re-analysis of the deposited data

How the results depend on the processing

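The counts of hosts higher, lower and changed by 2-fold or more stayed within 1.5 times of 10, 10, 6 and 3 under every alternative that gave calls (subtracting the neighbours' median gave none): 8 to 10 higher, 9 to 13 lower, 5 to 7 higher by 2-fold and 2 to 4 lower by 2-fold. The count of lower calls was 13 under library-size and upper-quartile scaling, with 9 higher. MIR155HG, MIR302CHG and MIR4453HG were then called, and MIR497HG was not.

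The hosts' median had an SD of 0.0019 over the 3 labelled ΔTUT4/7 libraries, which leaves out the spread of the WT libraries. The median log2 fold change of the hosts, 0.03, moved by more than that SD in most alternatives. It was -0.0847 under library size alone, -0.0712 under upper-quartile scaling, 0.0324 with DESeq2, 0.0334 with limma-voom and 0.0400 with limma on log2(CPM + 1). It was 0.0141 at a mean count of 50 or more, 0.0432 with a replicate block and 0.23 with neighbouring genes subtracted. Without MIR663AHG and MIR1302-9HG, a choice made after seeing the data, it was -0.0152. Leaving out 1 library gave -0.0307 to 0.0758. That range holds all these values except those of library size, upper-quartile scaling and neighbouring genes subtracted.

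Signs turned for hosts that were not called. MIRLET7A1HG was at -0.0995 under library size alone, -0.0865 under upper-quartile scaling, -0.0019 with limma-voom and -0.0505 at a mean count of 50 or more, and between -0.0985 and 0.111 with 1 library left out. MIR133A1HG was at -0.0700 under library size alone, -0.0560 under upper-quartile scaling and -0.0206 at a mean count of 50 or more, and between -0.0105 and 0.138 with 1 library left out. MIR600HG was at -0.00066 under library size alone, MIR3150BHG at 0.0237 with limma-voom and between -0.271 and 0.0883 with 1 library left out, and MIR4713HG between -0.725 and 0.0971 with 1 left out. With neighbouring genes subtracted, the called MIR181A1HG turned to 0.27, and of those not called MIR302CHG turned to 0.30, MIR4453HG to 0.21, MIR3150BHG to 0.31, MIR181A2HG to -0.02 and MIR133A1HG to -0.10. The cause was not tested.

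Same-numbered WT and labelled ΔTUT4/7 libraries did not deviate together (r across genes 0.05, -0.01 and -0.02), so the numbers give no pairing. With the replicate block 9 hosts were higher, 10 lower, and 6 and 3 changed by 2-fold, and MIR497HG was lost (log2 fold change 0.77, adjusted p = 0.0782). Of the 8 hosts with a mean count under 50, 2 were called, and the share of all tested genes called at that level was not counted.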
